A study of Mus musculus with 9 samples.

Results

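Messenger RNA of 9 genes of the death receptor, necroptosis and BCL2 pathways was followed in mouse hearts: Casp8, Ripk1, Ripk3, Mlkl, Fadd, Bid, Bcl2, Bcl2l1 and Mcl1. The genes were chosen by name, with earlier results of these data known, and all 9 were among the 13539 genes of the deposited table. The hearts came from 12-week-old male C57BL/6JOlaHsd mice in 3 groups of 3 libraries. Wild-type mice received isoproterenol (ISO), a beta-adrenergic agonist that loads the heart, by minipump for 7 days at a daily dose of 10 mg/kg. Mice lacking OMA1, a mitochondrial protease that stress switches on, either received the same infusion or were left untreated. The sources used here do not say how the OMA1 knockout was made or in which cells it acts. The untreated mice carried no pump, so drug and pump cannot be told apart, and wild-type hearts without treatment were not analysed here. Treatment was therefore compared within the knockout, and genotype only among treated mice. The comparison of treated wild-type with untreated knockout hearts joins both differences.

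Death receptors such as TNFR1 and FAS sit at the cell surface and, once bound by their ligands, gather adaptor proteins on their inner side. FADD is the adaptor that brings in the protease caspase-8, which can start apoptosis by cleaving executioner caspases and, by cleaving BID, pass the signal to mitochondria. RIPK1 is the kinase that joins the receptor complex, and when caspase-8 is inactive it can engage RIPK3, which phosphorylates MLKL, the protein that ruptures the plasma membrane in necroptosis. BCL2, BCL-XL (made from Bcl2l1) and MCL1 hold back the release of cytochrome c from mitochondria, and BID opposes them. Cardiomyocytes depend on MCL1 for survival. These proteins are switched largely by cleavage, phosphorylation and binding, none of which RNA levels measure.

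The levels below are normalized counts, that is, reads scaled by the authors, who name library size. The values of a library summed to between 945508 and 1.01879e+06, the most in treated knockout replicate 2, so these totals were not equal. A value of 1 stood for 7.24 to 12.3 reads, depending on the library, and the libraries held 6933879 to 12187701 reads. Differences are in log2(value + 1), which understates changes of weak genes, with the standard error (SE) of a limma fit over 13369 tested genes. Adjusted p-values are from that fit with Benjamini-Hochberg adjustment over all tested genes, with a threshold of 0.05. The labels name no animals, so the p-values measure the spread between these libraries, which may be partly technical. Oma1 itself stood at 19.9 ± 2.16 (SD, n = 3) in hearts of treated wild-type mice, at 7.42 ± 1.46 in those of untreated and at 6.24 ± 0.502 in those of treated knockout mice, in the direction of the labels. The share of mitochondrial genome reads was 36.7% to 37.3% in treated wild-type, 33.9% to 34.6% in untreated and 38.2% to 42.5% in treated knockout libraries, with the highest share in replicate 2 of the last group.

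Casp8, Ripk1, Ripk3 and Mlkl are the protease, both kinases and the membrane effector. They were the members that passed as higher in both treated groups than in untreated knockout hearts. The 250 bases before their RefSeq start sites (GRCm38.p6, gene strand, 5′ to 3′) are shown because these 4 genes moved together. The window of Casp8 lies at chr1:58802252-58802501 (plus strand), that of Ripk1 at chr13:34002113-34002362 (plus), of Ripk3 at chr14:55788858-55789107 (minus) and of Mlkl at chr8:111338206-111338455 (minus). The GENCODE annotation starts Casp8 at 58795374, so the Casp8 window lies inside that gene and does not cover that start. Capitals mark matches to the motifs searched.
Casp8: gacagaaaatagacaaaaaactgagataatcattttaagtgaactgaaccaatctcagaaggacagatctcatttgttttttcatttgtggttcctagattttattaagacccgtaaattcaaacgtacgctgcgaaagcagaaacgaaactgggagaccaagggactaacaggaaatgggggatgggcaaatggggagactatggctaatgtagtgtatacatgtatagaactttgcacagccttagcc
Ripk1: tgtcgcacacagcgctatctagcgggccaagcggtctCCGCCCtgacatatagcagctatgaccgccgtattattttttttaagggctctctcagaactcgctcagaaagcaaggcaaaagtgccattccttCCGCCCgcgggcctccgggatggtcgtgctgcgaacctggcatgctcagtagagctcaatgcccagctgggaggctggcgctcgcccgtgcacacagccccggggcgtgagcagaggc
Ripk3: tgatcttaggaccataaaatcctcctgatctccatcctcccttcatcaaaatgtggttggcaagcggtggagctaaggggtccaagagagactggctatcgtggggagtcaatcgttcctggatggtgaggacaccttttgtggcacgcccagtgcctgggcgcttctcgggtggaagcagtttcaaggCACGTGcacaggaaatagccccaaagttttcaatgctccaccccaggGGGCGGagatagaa
Mlkl: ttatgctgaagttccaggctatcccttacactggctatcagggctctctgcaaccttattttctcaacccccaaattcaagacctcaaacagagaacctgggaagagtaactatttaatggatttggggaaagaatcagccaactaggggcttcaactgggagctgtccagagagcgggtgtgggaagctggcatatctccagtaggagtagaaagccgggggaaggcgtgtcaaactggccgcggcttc
The motifs, searched on both strands, were GAAA followed by any 2 bases and GAAA (interferon-stimulated response element core), TTCNNNGAA (GAS), TGANTCA (AP-1), TGACGTCA (cyclic AMP response element), GGGCGG (GC box), CACGTG (E-box) and the NF-kB site. Ripk1 held the GC box at 213 and 118 bases before the start, and Ripk3 held it at 14 bases, a motif present in 32.7% of all 32851 promoter windows of this length. Ripk3 also held the E-box, 61 bases before the start, which 6.02% of windows contain. The interferon, GAS, AP-1, cyclic AMP and NF-kB motifs, present in 2.98%, 7.02%, 6.75%, 1.55% and 7.25% of windows, had no match in the 4 windows shown. Ripk1 has another start site in the RefSeq table (window chr13:34002624-34002873, plus strand, not shown), whose window held 2 matches to GAS, at 108 and 11 bases before that start, and 4 to the GC box. Windows of Fadd, Bid, Bcl2 and Mcl1 (not shown) also held the GC box, and a Bcl2l1 window held the NF-kB motif.

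Between treated and untreated knockout hearts, 6 of the 9 members rose and none fell. The 6 were Casp8, Ripk1, Ripk3, Mlkl, Bid and Bcl2. Over all tested genes 41.7% passed in this comparison, 21.3% higher and 20.4% lower. The 7 members with every treated library above every untreated one were these 6 and Mcl1; 28.1% of all tested genes did the same and 26.7% did the opposite. The median difference of the 9 members was 0.62, against 0.02 over all tested genes. The members were chosen with earlier results of these data known, so these contrasts with all genes only describe them. In treated wild-type against untreated knockout hearts 5 members were higher, namely Casp8, Ripk1, Ripk3, Mlkl and Mcl1. None was lower, against 13.9% of all tested genes that were higher and 12.9% that were lower (26.8% in all). The groups did not overlap for these 5 members, nor for 21.3% of all tested genes that were higher and 21% that were lower. The members' median there was 0.21 and that of all genes 0.01. When the treated groups were compared, 1 of the 9 members, Bid, passed the test and was higher in the knockout, where 7.92% of all tested genes were higher and 9.47% lower (17.4% in all). Bid and Mlkl had every treated knockout library above every treated wild-type one, as did 18.3% of all tested genes, and Fadd had them all below, as did 17.8%. Endothelial markers also differed between all 3 groups, with summed levels of 975 to 1075 in untreated knockout, 1385 to 1526 in treated wild-type and 1781 to 2170 in treated knockout libraries, and atrial, fat and B cell markers were lower in the treated groups. Their part in the results was not tested. The 3 comparisons share libraries in pairs and are not independent. All 9 members passed the filter on low values, 8 of them with a value of at least 1 in all 9 libraries and Bid in 8.

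**Figure D1:**
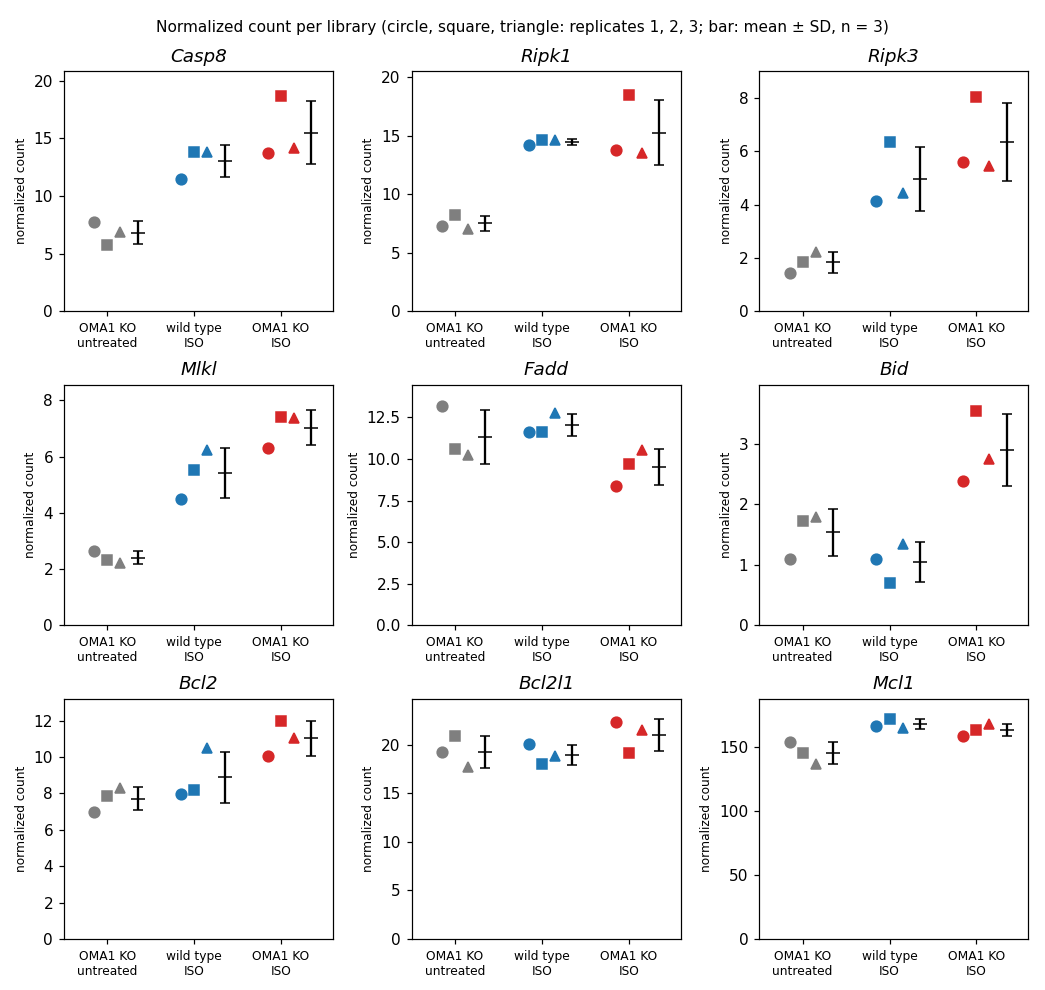
Normalized count (vertical axis, linear from 0) of the 9 genes in each library, by group, with the mean and SD of the 3 libraries beside the points. Casp8, Ripk1, Ripk3 and Mlkl lie higher in all 6 treated libraries than in the 3 untreated ones, Bid is highest in the 3 treated knockout libraries, and Bcl2l1 overlaps between all groups.

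Among the initiators, Casp8, the gene of caspase-8 (chr1:58795374-58847503, plus strand), had normalized counts of 7.73, 5.78 and 6.91 in the untreated knockout libraries. It had 11.5, 13.8 and 13.8 in treated wild-type and 13.7, 18.7 and 14.1 in treated knockout libraries. Every treated library lay above every untreated one, and the treated groups overlapped. Means were 6.81 ± 0.979 (SD, n = 3) untreated, 13.0 ± 1.37 in treated wild-type and 15.5 ± 2.76 in treated knockout hearts. The treated knockout mean was 2.27 times the untreated one (log2 difference 1.07 ± 0.14 SE, adjusted p = 4.47e-05, limma), and the treated wild-type mean 1.92 times (0.85 ± 0.14, adjusted p = 0.000552). Treated knockout minus treated wild-type was 0.22 with a 95% interval of -0.08 to 0.52 (adjusted p = 0.294, limma).

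Ripk1 encodes the kinase recruited to TNFR1. Its gene lies at chr13:34002363-34037147 (plus strand). Counts were 7.25, 8.24 and 7.05 in untreated knockout, 14.2, 14.6 and 14.6 in treated wild-type and 13.8, 18.4 and 13.5 in treated knockout libraries. Again no treated library reached down to the untreated ones, while the treated wild-type values fell inside the range of the treated knockout. The treated knockout exceeded the untreated by 0.92 ± 0.12 (2.03 times, adjusted p = 5.49e-05, limma), and the treated wild-type did so by 0.87 ± 0.12 (1.93 times, adjusted p = 0.000182). The treated groups differed by 0.06 with an interval of -0.21 to 0.32 (adjusted p = 0.792, limma). Of the 8344 exonic bases of Ripk1, 752 overlap exons of Serpinb6a on the other strand and of a predicted gene. Serpinb6a, a serine protease inhibitor, stood at 63.6 ± 4.24 in untreated knockout, 86.0 ± 9.87 in treated wild-type and 89.7 ± 1.92 in treated knockout hearts. The sources used here do not say whether reads were counted by strand, so reads of the overlap cannot be assigned with certainty.

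Ripk3, the kinase of the necroptosis complex (chr14:55784995-55788865, minus strand), was weaker. It had 1.45, 1.84 and 2.21 in untreated knockout, 4.13, 6.34 and 4.42 in treated wild-type and 5.60, 8.03 and 5.43 in treated knockout libraries. The lowest treated library stood at 4.13 and the highest untreated one at 2.21. Relative to the untreated mean the treated knockout mean was 3.46 times as high, the largest ratio among the 9 members in this comparison (1.37 ± 0.19, adjusted p = 6.58e-05, limma). For treated wild-type hearts it was 2.70 times (1.06 ± 0.19, adjusted p = 0.000937). Treated knockout and treated wild-type means differed by 0.30, which did not pass, with an interval of -0.10 to 0.70 (adjusted p = 0.287, limma).

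Mlkl encodes the pseudokinase that carries out necroptosis (chr8:111311797-111338177, minus strand). It had 2.66, 2.34 and 2.21 in untreated knockout, 4.49, 5.53 and 6.25 in treated wild-type and 6.32, 7.40 and 7.38 in treated knockout libraries. The 3 groups did not overlap, but the closest treated libraries, 6.25 and 6.32, were nearly equal. Treated knockout exceeded untreated by 1.24 ± 0.15 (2.93 times, adjusted p = 2.19e-05, limma), and treated wild-type did by 0.91 ± 0.15 (2.26 times, adjusted p = 0.000503). The 0.33 by which the treated knockout exceeded the treated wild-type (interval 0.01 to 0.65) did not pass (adjusted p = 0.14, limma).

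Fadd, the adaptor between receptor and caspase-8, did not follow these 4 genes. The gene lies at chr7:144577318-144582463 (minus strand). Counts were 13.2, 10.6 and 10.2 in untreated knockout, 11.6, 11.6 and 12.8 in treated wild-type and 8.39, 9.69 and 10.5 in treated knockout libraries. All 3 treated knockout libraries lay below all 3 treated wild-type libraries, while both treated groups overlapped the untreated one. The difference between treated knockout and treated wild-type was -0.31 ± 0.12 (interval -0.57 to -0.04) and did not pass (adjusted p = 0.0991, limma). Treated minus untreated knockout was -0.22 (interval -0.49 to 0.04, adjusted p = 0.165, limma). Treated wild-type minus untreated knockout was 0.09 (adjusted p = 0.643, limma). Of the 3903 exonic bases of Fadd, 239 overlap exons of Faddos on the other strand, with the same limit as for Ripk1.

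Bid is the BH3-only protein that caspase-8 cleaves, and links the receptor route to mitochondria. The gene lies at chr6:120891930-120916853 (minus strand). It was the weakest member. Counts were 1.09, 1.72 and 1.80 in untreated knockout, 1.10, 0.692 and 1.35 in treated wild-type and 2.38, 3.54 and 2.76 in treated knockout libraries. Those values rest on 36, 32 and 91 reads in all for the 3 groups. Each treated knockout library was above each of the other 6, and the other groups overlapped. The treated knockout mean of 2.90 ± 0.592 was 2.77 times the treated wild-type mean of 1.05 ± 0.330 (log2 difference 0.93 ± 0.20, interval 0.50 to 1.36, adjusted p = 0.0077, limma). Against the untreated knockout mean of 1.54 ± 0.390 it was 1.89 times (0.62 ± 0.20, adjusted p = 0.0236, limma). That call was lost without untreated knockout replicate 1 (adjusted p = 0.0967), without treated knockout replicate 2 (0.102) or replicate 3 (0.0509), and with DESeq2 (0.0999). Treated wild-type and untreated knockout differed by -0.31 ± 0.20 (adjusted p = 0.282, limma). Of the 3550 exonic bases of Bid, 628 overlap exons of Bcl2l13 on the other strand. Bcl2l13, which encodes a mitochondrial outer membrane protein, was lowest where Bid was highest, at 84.3 ± 1.80 in untreated knockout, 74.9 ± 7.19 in treated wild-type and 55.5 ± 6.11 in treated knockout hearts.

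**Figure D2:**
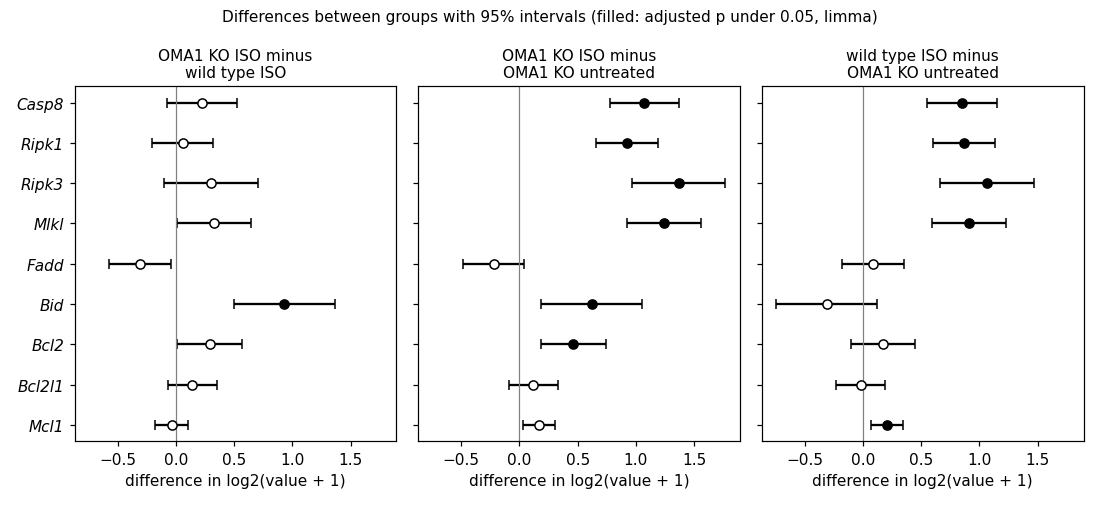
Difference in log2(value + 1) between groups for the 9 genes, 1 panel per comparison, as the limma estimate with its 95% interval; filled points have an adjusted p under 0.05 and the vertical line marks no difference. Against untreated hearts the estimates of Casp8, Ripk1, Ripk3 and Mlkl lie between 0.85 and 1.37, and between the treated groups only the point of Bid is filled.

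Of the survival genes, Bcl2 (chr1:106538178-106714274, minus strand) rose in treated against untreated knockout hearts. It had 7.01, 7.87 and 8.29 in untreated knockout, 7.98, 8.19 and 10.5 in treated wild-type and 10.1, 12.0 and 11.0 in treated knockout libraries. The treated knockout libraries all lay above the untreated ones, and treated wild-type overlapped both groups. The treated knockout mean was 1.43 times the untreated mean (0.46 ± 0.13, adjusted p = 0.0104, limma). The difference between the treated groups, 0.29 ± 0.13 (interval 0.01 to 0.57), did not pass (adjusted p = 0.137, limma). With a correction for transcript length and GC content it was 0.44 and passed (adjusted p = 0.0403, limma). Treated wild-type against untreated knockout gave 0.17 ± 0.13 (adjusted p = 0.35, limma). Of the 9157 exonic bases of Bcl2, 558 overlap exons of D630008O14Rik on the other strand, so reads there cannot be assigned with certainty.

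Bcl2l1, the gene of BCL-XL (chr2:152780668-152831728, minus strand), had 19.2, 20.9 and 17.7 in untreated knockout, 20.1, 18.0 and 18.8 in treated wild-type and 22.4, 19.2 and 21.5 in treated knockout libraries. All 3 groups overlapped. The difference between treated and untreated knockout was 0.12 (interval -0.09 to 0.33, adjusted p = 0.344, limma), and that between the treated groups 0.14 (interval -0.07 to 0.35, adjusted p = 0.35). Treated wild-type minus untreated knockout was -0.02 ± 0.10 (adjusted p = 0.904, limma).

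Mcl1 (chr3:95658788-95663176, plus strand) was by far the strongest member. Counts were 154.4, 145.6 and 136.8 in untreated knockout, 166.6, 172.4 and 164.8 in treated wild-type and 159.0, 163.5 and 168.4 in treated knockout libraries. Every treated library lay above every untreated one, by a narrow margin. Treated wild-type exceeded untreated knockout 1.15 times (0.21 ± 0.07, adjusted p = 0.0303, limma), a call lost in 9 of its alternatives, among them edgeR (adjusted p = 0.0555). Without wild-type replicate 1 the adjusted p was 0.057, without wild-type replicate 2 it was 0.0893, without untreated replicate 2 it was 0.0855 and without untreated replicate 3 it was 0.131. The knockout difference of 0.17 ± 0.07 was at adjusted p = 0.051 (limma) and passed when libraries were rescaled to reads outside the mitochondrial genome (0.28, adjusted p = 0.00255). That rescaling moved the median of all tested genes to 0.11 in this comparison. The treated groups differed by -0.04, with an interval of -0.18 to 0.10 (adjusted p = 0.737, limma), and this estimate turned to 0.01 under the same rescaling.

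Treated knockout replicate 2 had the highest value of all 9 libraries for Casp8, Ripk1, Ripk3, Mlkl, Bid and Bcl2. It also had the highest mitochondrial share and the highest sum of erythroid markers. Without it, the treated minus untreated knockout difference was 0.94 for Casp8, 0.79 for Ripk1, 1.21 for Ripk3 and 1.21 for Mlkl, with adjusted p-values of 0.000225, 0.0002, 0.000455 and 0.000162 (limma). For Bcl2 it was 0.41 (adjusted p = 0.0441, limma). Without that library Bid differed between the treated groups by 0.81 (adjusted p = 0.0402, limma).

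To compare levels between genes, mean normalized counts were divided by the length of the longest transcript in kilobases. In treated knockout hearts Mcl1 stood at 47.9 ± 1.38 per kilobase, Bcl2l1 at 8.19 ± 0.645 and Casp8 at 5.99 ± 1.07. Mlkl at 3.51 ± 0.308 and Ripk3 at 3.23 ± 0.739 lay within their spread of each other. Fadd at 2.45 ± 0.278 and Ripk1 at 2.36 ± 0.427 were as close, followed by Bcl2 at 1.53 ± 0.134 and Bid at 1.20 ± 0.245. In untreated knockout hearts Mcl1 at 42.6 ± 2.57 and Bcl2l1 at 7.50 ± 0.628 again came first, but Fadd at 2.90 ± 0.412 and Casp8 at 2.63 ± 0.379 lay within their spread, and Mlkl, Ripk1, Bcl2 and Ripk3 ranged from 1.20 down to 0.934. In treated wild-type hearts Bid was lowest at 0.433 ± 0.137 and Mcl1 highest at 49.1 ± 1.15. Isoform use sets the true length, so this order is approximate.

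The genes most like each member, by Pearson correlation of log2 values over the 9 libraries, differed among members. The correlations describe 9 libraries that fall into 3 groups, and 12151 genes were compared. They were Nmt2 and Ncapg for Casp8 (both 0.987), Trim59 and Dlgap5 for Ripk1 (0.989 and 0.988), Ywhaq and Stard4 for Ripk3 (both 0.988), and AI593442 and Anxa3 for Mlkl (0.994 and 0.993). They were Lad1 and Sntb1 for Fadd (0.963 and 0.937), Pcnxl3 and Skiv2l for Bid (0.977 and 0.966), Rnase4 and Rnf26 for Bcl2 (0.991 and 0.979), Prpf6 and Flcn for Bcl2l1 (0.919 and 0.918), and Ppp1r2 and Hinfp for Mcl1 (0.961 and 0.947). Some of these genes were near the floor: Ncapg stood at 0.123 in untreated replicate 2 and Dlgap5 at 0.138 in untreated replicate 3, each the value of 1 read.

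The rest of the pathway was read from 8 lists of 76 genes, also chosen with earlier results known. Of these, 68 were in the table and all 68 were tested. Tnf, Fasl, Bcl2a1a, Bcl2a1d, Bcl2l10, Hrk, Pmaip1 and Il18 were not among the rows. Between treated and untreated knockout hearts 22 of the 68 rose and 6 fell, with a median difference of 0.20 beside 0.02 for all tested genes. These 28 calls are in total a share near the 41.7% of all tested genes. By direction, the rises were a larger share than the 21.3% of all tested genes that were higher. The falls were a smaller share than the 20.4% that were lower. The treated knockout had 11 higher and 6 lower than the treated wild-type (median 0.13 beside 0.02), and between treated wild-type and untreated knockout hearts 6 were higher and 6 lower (median 0.05 beside 0.01). Over all tested genes 17.4% and 26.8% were called in those comparisons. The counts of single lists below are to be read against the shares of the same comparison.

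Of 10 death ligands and receptors, 7 rose and none fell in treated against untreated knockout hearts (median 0.42). Over all tested genes 21.3% were higher and 20.4% lower there. Tnfrsf1a, the gene of TNFR1, rose from 35.0 ± 2.90 to 48.8 ± 3.34 (0.47 ± 0.10, adjusted p = 0.002, limma). Tnfsf10, the death ligand TRAIL, rose from 21.9 ± 1.57 to 29.0 ± 0.977 (0.39, adjusted p = 0.00255), and Tnfrsf25, another receptor with a death domain, from 1.04 ± 0.453 to 3.05 ± 0.265 (1.01, adjusted p = 0.00281, limma). Tnfsf12, the ligand TWEAK, was higher in treated knockout than in treated wild-type hearts, at 18.8 ± 0.944 against 12.8 ± 1.39 (0.53, adjusted p = 0.00644, limma), and had an adjusted p of 0.0996 with the length and GC correction.

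Of 19 adaptors and ubiquitin regulators of the TNF receptor complex, 5 rose and none fell within the knockout, a share of rises near the 21.3% of all tested genes. Ikbkb, a kinase of the NF-kB route, rose by 0.44 ± 0.12 (adjusted p = 0.0077, limma). Cflar, the caspase-8 regulator cFLIP, rose by 0.29 (adjusted p = 0.0135, limma), and was at 0.0676 without untreated replicate 1. Among treated hearts 4 were higher and 2 lower in the knockout, beside 7.92% and 9.47% of all tested genes. Tab2, which links ubiquitin chains to the kinase TAK1, was lower in treated knockout at 53.9 ± 2.42 against 69.4 ± 0.502 (-0.36, adjusted p = 0.00339, limma). Sharpin, an adaptor of the linear ubiquitin ligase, was higher by 0.38 (adjusted p = 0.0154, limma), and Rbck1, of the same ligase, by 0.33 (0.0187). Both calls were lost when 1 library was left out. Sharpin had an adjusted p of 0.0586 without wild-type replicate 2, and Rbck1 of 0.0574 without wild-type replicate 1 and 0.0744 without knockout replicate 2 (limma). With the length and GC correction Sharpin was at 0.102 and Rbck1 at 0.208.

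Of 6 other necroptosis regulators, 1 rose and 2 fell in treated against untreated knockout hearts, where 21.3% of all tested genes were higher and 20.4% lower. Ppif, the mitochondrial cyclophilin of the permeability transition, fell from 177 ± 11.4 to 121 ± 12.3 (-0.55, adjusted p = 0.000238, limma). It was also lower in treated wild-type than in untreated knockout hearts, at 131 ± 12.0 (-0.43, adjusted p = 0.00287, limma). Pgam5, a mitochondrial phosphatase, fell by 0.42 within the knockout (adjusted p = 0.00431, limma). Between the treated groups Pgam5 was lower in the knockout (-0.34, adjusted p = 0.032, limma), a call lost in 8 of its 25 alternatives. Of 13 apoptosome and executioner genes, 3 rose and 3 fell in treated against untreated knockout hearts. Casp9, the caspase of the apoptosome, fell by 0.42 within the knockout (adjusted p = 0.00414), and Parp1, a DNA repair enzyme, fell by 0.46 (adjusted p = 0.00153, limma). Casp9 was also lower in treated knockout than in treated wild-type hearts (-0.36, adjusted p = 0.0251, limma), a call lost in 5 of its 25 alternatives. Dffb, the nuclease that cuts DNA in apoptosis, was higher in treated knockout than in treated wild-type hearts, at 7.40 ± 1.59 against 3.95 ± 0.50 (0.75, adjusted p = 0.0064, limma).

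In the BCL2 family outside the 9 members, Bcl2l2, the survival protein BCL-W, fell within the knockout from 50.4 ± 0.838 to 37.7 ± 4.68 (-0.42, adjusted p = 0.00229, limma). Of the 3 BAX-type effectors, which form the mitochondrial pore, Bax rose from 11.2 ± 0.896 to 15.8 ± 3.01 (0.45, adjusted p = 0.0108, limma) and Bok rose by 0.53 (adjusted p = 0.0129). Without treated knockout replicate 2 both calls were lost (adjusted p = 0.0554 for Bax and 0.0664 for Bok, limma), and without untreated replicate 2 Bax was at 0.0502. Of 7 other BH3-only genes 1 rose within the knockout: Bnip3, a mitophagy receptor, from 112 ± 3.58 to 166 ± 14.8 (0.56, adjusted p = 8.53e-05, limma). Bnip3 was also higher in treated wild-type than in untreated knockout hearts, at 202 ± 15.0 (0.84, adjusted p = 6.64e-06, limma). Between the treated groups it was lower in the knockout (-0.28, adjusted p = 0.0262, limma), a call lost in 6 of its 25 alternatives. Of 8 inflammatory caspase and gasdermin genes 3 rose and none fell within the knockout, where 21.3% of all tested genes were higher and 20.4% lower. Casp4 rose by 1.13 (adjusted p = 0.000328, limma) and Gsdmd, the pore of pyroptosis, by 0.62 (adjusted p = 0.00402, limma). Casp4 was also higher in treated knockout than in treated wild-type hearts (0.60, adjusted p = 0.0425, limma), a call lost in 12 of its 24 alternatives.

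**Figure D3:**
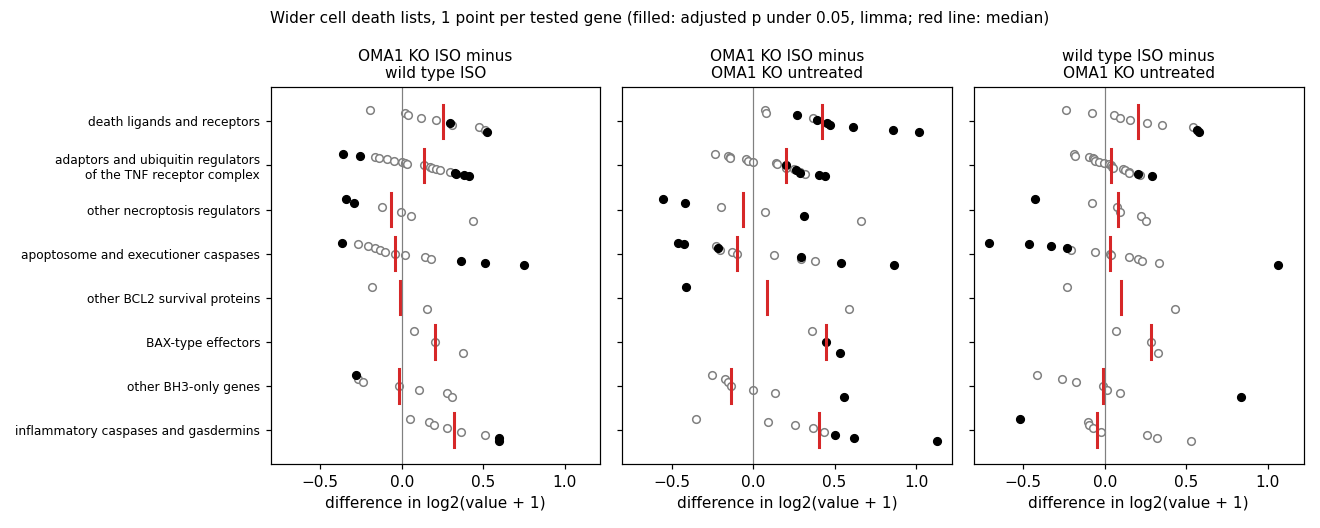
Difference in log2(value + 1) for each tested gene of the 8 wider cell death lists, 1 panel per comparison; filled points have an adjusted p under 0.05 (limma) and the red line is the list's median. In treated against untreated knockout hearts 7 of 10 ligands and receptors are filled to the right. Of 13 apoptosome and executioner genes 3 are filled to the right and 3 to the left. Over all tested genes 21.3% were higher and 20.4% lower in that comparison.

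Cell type markers moved with treatment, with the sums of each list as follows. Bulk tissue was sequenced, so more or fewer cells of a type and more or less RNA per cell cannot be told apart. Markers of cardiomyocytes, the contractile cells of the heart, summed to 38577 to 41523 in untreated knockout, 32390 to 38013 in treated wild-type and 34081 to 36246 in treated knockout libraries, as heart tissue should show. Of the 7 endothelial markers, whose sums are given above, 7 rose within the knockout. Among treated hearts 5 of these 7 were higher in the knockout. Markers of dividing cells summed, in the same order of groups, to 10.7 to 14.0, 85.6 to 121 and 79.9 to 156. In each treated group 5 of 5 were higher than in untreated knockout hearts. Fibroblast markers summed to 708 to 746, 922 to 1717 and 1001 to 1055, with 5 of 6 higher in treated than untreated knockout hearts. Macrophage sums overlapped, at 262 to 368, 304 to 443 and 364 to 410, with 3 of 8 markers higher within the knockout. Smooth muscle and pericyte markers summed to 618 to 639, 978 to 1155 and 976 to 1156, and 5 of 5 were higher within the knockout. Erythroid sums overlapped, at 1646 to 3891, 1903 to 2534 and 1007 to 4371, the highest in treated knockout replicate 2. Neutrophil and T cell markers were weak, with sums of at most 7.62 and 1.83.

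Other markers were lower in the treated libraries. Atrial markers summed to 1129 to 2526 in untreated libraries, 53.5 to 844 in treated wild-type and 87.8 to 119 in treated knockout libraries. All 5 were lower in both treated groups than in untreated knockout hearts. Bmp10, which marks atrial muscle, was at 0 in every treated library. Adipocyte markers summed to 8.12 to 35.0 untreated and to at most 0.415 in treated libraries, and the 3 B cell markers to 5.44 to 13.1 against at most 1.5. The tissue sampled and the treatment therefore cannot be told apart for the treated against untreated comparisons.

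**Figure D4:**
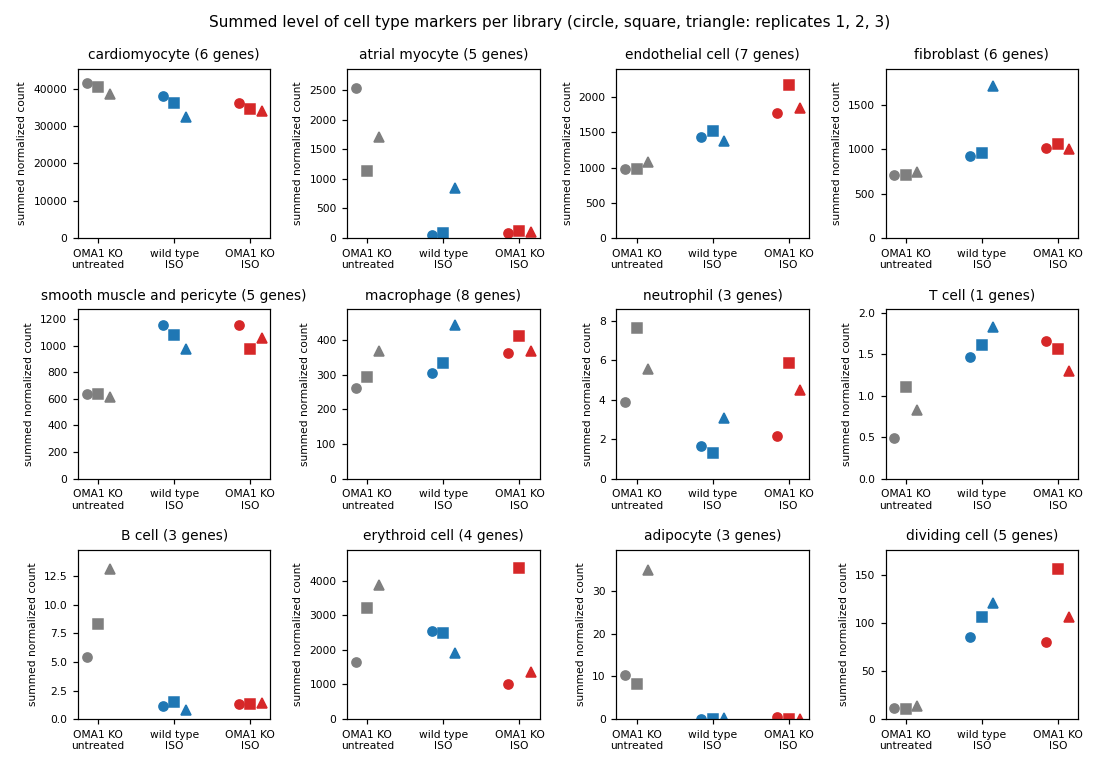
Summed normalized count of cell type marker lists in each library (vertical axes, linear from 0), by group. Endothelial and dividing cell sums are higher, and atrial, adipocyte and B cell sums lower, in the 6 treated libraries than in the 3 untreated ones, with no overlap.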

How the data were processed

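Hearts were sequenced from total RNA prepared with TRIzol and RNeasy columns and made into TruSeq libraries, per the labels. The unit of the deposited values is signal: expected counts that the authors normalized by library size. The submitters' processing notes name cutadapt, RSEM 1.17, limma and GRCm38. The sources used here name neither the aligner nor the rule by which genes were left out. Within a tolerance of 0.02, 100% of the values were whole multiples of a step fixed for each library, which gave the reads used for depth, edgeR 4.0.16 and DESeq2 1.42.0. Rows without a symbol (232 of 13539) were kept.

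Genes that reached a value of 1 in 3 or more samples (13369 genes) were fitted as log2(value + 1) with limma 3.58.1 in R 4.3.3. All 9 samples entered 1 fit with group means, a common spread and a trend of variance with level. P-values are two-sided, with an adjusted threshold of 0.05. No library was a copy of another: the most similar of 36 pairs had equal reads in 3.15% of genes. This check cannot tell technical from biological replicates. Positions, lengths and GC content came from GENCODE M21 (GRCm38), matched for 13385 genes. Promoters came from RefSeq.

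The members and lists were chosen with earlier results of these data known. The text names all 9 members, Oma1, up to 3 genes per list with the smallest p in a comparison, and the 2 genes most correlated with each member, leaving out predicted genes. A gene that this rule names is not reported here. The fit was tested on simulated data. Alternatives covered pseudocount, filter, scaling, fit, threshold, replicate block, length and GC, and each library left out.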

Additional observations from a re-analysis of the deposited data

How the results depend on the processing

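The count of 2325 genes past the threshold between the treated groups became 1400 without the mean-variance trend, 1447 with the length and GC correction and replicate block, and 830 at an adjusted p of 0.01. It ranged from 1167 to 2319 with each library left out, lowest without treated knockout replicate 2. It was 1489 without wild-type replicate 1 and 1498 without wild-type replicate 2. Treated wild-type against untreated knockout gave 3589 genes, 1952 at 0.01 and 2490 to 3944 with each library left out, and treated against untreated knockout gave 5580 genes and 4416 to 5893. Rescaling to reads outside the mitochondrial genome moved the share of higher calls from 45.5% to 59.3% between the treated groups, from 51% to 66.3% within the knockout and from 51.8% to 62.6% in the third comparison. The median of all genes moved to 0.06, 0.11 and 0.06 (log2).

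With a minimum value of 10, which left 6 members tested, the members past the threshold were 0 between the treated groups, 3 within the knockout and 3 in the third comparison. For the treated groups DESeq2 gave 0, since it returned no adjusted p for Bid, and the length and GC correction gave 2, Bid and Bcl2, with and without the block. The higher levels of Casp8, Ripk1, Ripk3 and Mlkl in both treated groups than in untreated knockout hearts held in all alternatives in which they were tested. Ripk3 and Mlkl fell below the minimum of 10. Bid between the treated groups held in all 23 of its alternatives that gave an adjusted p, from 0.22 with a pseudocount of 10 to 1.43 with edgeR.

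Estimates that changed sign were all near 0. Ripk1 between the treated groups was -0.027 with sample weights and ranged from -0.0788, without treated knockout replicate 2, to 0.131 with each library left out. Mcl1 between them was 0.0114 with the mitochondrial rescaling, 0.0507 with cyclic loess and 0.00468 with the length and GC correction. Bcl2l1 in treated wild-type against untreated knockout was 0.0367 with the rescaling and 0.0639 with the length and GC correction, and ranged from -0.0767 to 0.0381 with each library left out, above 0 without wild-type replicate 2 or untreated replicate 2. The cause was not tested.

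The replicate numbers gave no sign of pairing. Same-numbered libraries correlated between -0.0991 and 0.135 in their deviations from the group means, with 1 of 9 pairs over 0.1. Differently numbered libraries correlated between -0.199 and 0.167. Such correlations over 3 libraries per group cannot exclude a shared litter or day, which the labels do not give. With the replicate block 2202, 5510 and 3503 genes passed between the treated groups, within the knockout and in the third comparison, and 1, 6 and 5 members, with no member call changed. Depth limits Bid most, at 6 to 34 reads per library; these counts cover counting error only.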
